A study of Mus musculus with 8 samples.

Results

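The comparison set 4 sarcomas with 2 copies of the BrafCa allele (BrafCa/Ca) against 2 sarcomas with 1 copy (BrafCa/+), over all 12393 genes measured. The 6 arrays were those titled as soft tissue sarcomas of either genotype, of 8 arrays in the series. The other 2 arrays were normal muscle from a hind limb without a tumour, 1 of each genotype, and were left out of every test. Tumours arose in mice that carried BrafCa and floxed p53 alleles after an injected adenovirus delivered Cre, a recombinase that cuts out or turns DNA between loxP sites. All 6 tumours carried the label p53 Fl/Fl, so floxed p53 was common to both groups and no tumour without it was compared. An adenovirus reaches any cell near the injection, so the cell of origin was not fixed by a promoter. The labels gave no age, no sex and no statement that each tumour came from its own mouse. The 6 tumours may thus come from fewer than 6 mice, and a p-value here treats them as independent. The question was which RNAs differed with the number of BrafCa copies.

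Braf is a serine/threonine kinase that RAS recruits to the membrane and that phosphorylates MEK, which in turn phosphorylates ERK. BrafCa is a conditional allele that makes an activated kinase once Cre has recombined it, and in a Ca/+ cell the other copy stays unaltered. ERK signalling induces transcription factors, growth factors and its own feedback inhibitors, the DUSP phosphatases and the Sprouty and Spred proteins. Its output moves cells into division by way of cyclin D, the Rb family and E2F factors, which act as dimers with DP proteins, and p53 restrains that entry through targets such as Cdkn1a.

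Levels below are log2 RMA values of 1 probe set per gene, and a difference is the mean of the Ca/Ca sarcomas minus the mean of the Ca/+ sarcomas, so 1 log2 unit is a 2-fold difference. Values are listed for Ca/Ca sarcomas 1, 2, 3 and 5 and then for Ca/+ sarcomas 1 and 2. The median SD of a gene was 0.233 among the Ca/Ca sarcomas and 0.155 between the Ca/+ sarcomas, and the median standard error of a difference was 0.197. Correlations across genes, which are no independent replicates, were 0.943 to 0.983 within the Ca/Ca group, 0.977 for the Ca/+ pair and 0.940 to 0.983 between the genotypes. Fibroblast and mesenchymal markers were high in all 6 sarcomas (mean log2 level of 7 genes 9.72 to 10.47 in Ca/Ca and 10.12 to 10.16 in Ca/+), and the 6 satellite cell and myoblast markers were low in both groups (4.46 to 4.91 and 4.38 to 4.52). Xist lay between 9.34 and 10.90 in every sarcoma and the 3 measured Y chromosome genes, Eif2s3y, Kdm5d and Uty, between 2.03 and 3.72. All 6 sarcomas thus had high Xist and low levels of these Y chromosome genes. Ca/Ca sarcoma 5 and Ca/+ sarcoma 1 had the lowest levels of the T cell and NK cell markers, 4.22 and 5.34 against 6.88 to 7.25 in the other 4 sarcomas, and their part in the differences below was not tested beyond leaving them out. Where leaving out 1 of the 6 sarcomas moved a list median by over 1.5 times, the lowest and highest medians so obtained are given beside it.

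No gene passed an adjusted p of 0.05 in limma (0 of 12393, 0%), and the lowest adjusted p was 0.196. At an unadjusted p of 0.05, 971 genes (7.84%) were under the line, 365 of them higher (2.95%) and 606 lower (4.89%) in Ca/Ca. Without Ca/+ sarcoma 1 there were 473. A simpler description is whether the groups overlap. In 1200 genes (9.68%) all 4 Ca/Ca values lay above both Ca/+ values, in 1398 (11.3%) all 4 lay below, and together these 2598 were 21% of genes. With Ca/+ sarcoma 1 or 2 left out fewer values have to be cleared, and the counts were 5358 and 5443. These shares are the background for every count below, and a gene is called separated where its groups did not overlap. The median difference over all genes was -0.0005. Centring the arrays on 11 reference genes in place of RMA's scale moved that median by 0.26, and list medians under it are to be read against that shift. With 4 arrays against 2 an exact permutation test of a single value has 15 splits and cannot give a p under 0.0667, so none is given.

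Genes of cell division and DNA replication stood lower in the Ca/Ca sarcomas more often than any other list examined. Of 41 measured members, 32 (78.0%) lay wholly below both Ca/+ sarcomas and 0 lay wholly above, beside 11.3% and 9.68% of all genes. The median difference was -0.84, a 1.80-fold lower level, beside -0.0005 over all genes. At the unadjusted p, 24 members were under 0.05, all lower in Ca/Ca, and 0 passed after adjustment. The list includes replication factors, cyclins, spindle kinases and kinesins.

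The list mean was 7.45, 7.53, 7.11 and 6.47 in the Ca/Ca sarcomas and 8.0 and 8.07 in the Ca/+ sarcomas. Both Ca/+ sarcomas were close together and above every Ca/Ca sarcoma, while Ca/Ca sarcoma 5 was lowest and had the lowest value of 38 of the 41 genes. In 40 of the 41 genes the highest value belonged to a Ca/+ sarcoma. Leaving out Ca/Ca sarcoma 5 gave a median of -0.64 with 32 members wholly below, beside 16.0% of all genes. Leaving out Ca/+ sarcoma 1 gave -0.88 with 36 wholly below, beside 21.7% of all genes. Such a count cannot fall when an array is left out, so only the medians could have moved either way. In bulk tumours, fewer dividing cells and less of these RNAs per cell cannot be told apart.

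**Figure D1:**
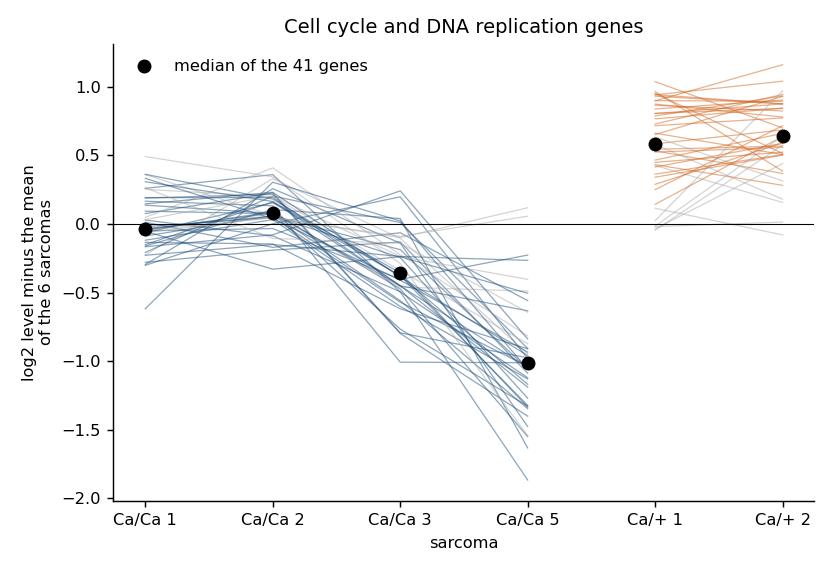
Log2 level of each of the 41 measured cell cycle and DNA replication genes minus its mean over the 6 sarcomas, by sarcoma. Each thin line joins the values of a gene within a genotype (the sarcomas have no order), blue for Ca/Ca and orange for Ca/+ in the 32 separated genes and grey in the 9 that overlap, and black points are medians. The Ca/+ medians lie above all 4 Ca/Ca medians and Ca/Ca sarcoma 5 is lowest.

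The 2 largest differences of the list were those of Aurkb and Tk1. Aurkb, the kinase of the chromosomal passenger complex, had levels of 6.26, 6.38, 5.53 and 4.97 in Ca/Ca and 7.20 and 7.46 in Ca/+. The groups were 0.82 apart and the difference was -1.54 (SE 0.42, 2.92-fold, adjusted p 0.579). Tk1, the thymidine kinase of the salvage pathway, had 7.78, 7.92, 7.36 and 6.28 against 8.77 and 8.87. Its difference was -1.49 (SE 0.46, adjusted p 0.618), with Ca/Ca sarcoma 5 far below the others.

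The next members were named after their values were seen. Tpx2, a spindle assembly factor that activates Aurora A, had 6.61, 6.59, 6.12 and 5.83 against 7.67 and 7.62, a difference of -1.36 (SE 0.25, adjusted p 0.579). Ube2c, the E2 enzyme of the anaphase-promoting complex, had 8.82, 8.91, 8.97 and 8.01 against 9.96 and 9.92, a difference of -1.27 (SE 0.29). Both genes had 2 tightly placed Ca/+ values and a Ca/Ca group that ended about 1 unit below them. Differences between -1.36 and -1.10 were also measured for Kif20a, Top2a, Mki67, Cenpf, Plk1, Bub1, Aurka, Ccna2, Birc5, Ccnb2, Bub1b, Rrm2 and Cenpe, which act in mitosis, cyclin control, chromatin untangling and nucleotide supply.

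Smaller differences were measured for genes of the start of S phase. Ccne1, the cyclin that drives entry into S phase, had 6.43, 6.15, 6.24 and 5.97 against 6.94 and 7.14, a difference of -0.84 (SE 0.17, 1.80-fold, adjusted p 0.579). Cdc45, part of the replicative helicase, had 6.53, 6.61, 6.52 and 6.49 against 7.05 and 7.35. Its 4 Ca/Ca values spanned little and its difference was -0.66 (SE 0.14). The 9 members whose groups overlapped were Mcm2, Mcm5, Mcm7, Rfc3, Fen1, Kif22, Cdc20, Mybl2 and Tyms, which act in replication except for the spindle gene Kif22, the anaphase activator Cdc20 and the transcription factor Mybl2. Fen1, the flap endonuclease, differed by -0.03 with a 95% interval of -0.34 to 0.29. The Tyms probe set read 2.24 to 2.45 in all 6 sarcomas, within the range of the Y chromosome probe sets, so it was too dim to read.

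Promoters of this list carry motifs of cell cycle control, and the sequences of the 3 separated members with the smallest p and an entry in the RefSeq promoter table are shown with that of Tfdp1, the E2F partner described next. The cell cycle homology region (CHR), bound by the DREAM complex of Rb relatives, was searched as TTTGAA or TTTAAA, and an E2F site as TTTCCCGC, TTTCGCGC, TTTGCCGC or TTTGGCGC. Both strands of the 250 bases before each RefSeq start (GRCm38.p6) were read, and capitals mark every match. In the 4 sequences printed no match overlapped another.
Ccne1: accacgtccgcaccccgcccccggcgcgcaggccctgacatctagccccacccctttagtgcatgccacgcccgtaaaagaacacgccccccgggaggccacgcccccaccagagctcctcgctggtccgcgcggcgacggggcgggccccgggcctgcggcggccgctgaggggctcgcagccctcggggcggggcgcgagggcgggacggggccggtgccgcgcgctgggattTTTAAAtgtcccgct
Cdc45: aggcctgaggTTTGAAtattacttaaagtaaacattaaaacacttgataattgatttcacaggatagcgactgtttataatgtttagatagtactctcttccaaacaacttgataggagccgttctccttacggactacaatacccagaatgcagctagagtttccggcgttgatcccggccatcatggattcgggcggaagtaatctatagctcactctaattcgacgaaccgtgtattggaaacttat
Ube2c: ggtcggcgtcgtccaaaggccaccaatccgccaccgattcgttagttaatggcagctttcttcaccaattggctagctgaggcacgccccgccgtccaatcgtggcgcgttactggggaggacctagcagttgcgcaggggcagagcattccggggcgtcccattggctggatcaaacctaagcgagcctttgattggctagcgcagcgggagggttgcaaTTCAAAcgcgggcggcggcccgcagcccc
Tfdp1: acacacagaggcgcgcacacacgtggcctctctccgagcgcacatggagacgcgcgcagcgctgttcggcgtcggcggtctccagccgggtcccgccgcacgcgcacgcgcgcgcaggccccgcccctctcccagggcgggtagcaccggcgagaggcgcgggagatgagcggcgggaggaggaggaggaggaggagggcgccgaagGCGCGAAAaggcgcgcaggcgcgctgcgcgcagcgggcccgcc
These lie at chr7:38107491-38107740 and chr16:18811973-18812222 on the minus strand and at chr2:164769679-164769928 and chr8:13338501-13338750 on the plus strand. Ccne1, Cdc45 and Ube2c each held 1 CHR match and Tfdp1 held 1 E2F match. A CHR match was present in 22.5% of 9887 measured genes with a promoter entry, and in 19 of 34 members of the list (55.9%). Of the separated members 14 of 25 held it (56%), so the separated members carried it about as often as the list did. An E2F match was present in 3.37% of all, in 6 of 34 members (17.6%) and in 3 of the 25 separated members (12%). The other 7 members had no entry. A match describes letters in the window and is no measure of binding.

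Genes of the Cdkn2, cyclin D and Rb axis, which controls entry into the cycle, had 6 of 18 members wholly below (33.3% beside 11.3%). Wholly above were 0, and the list had a median of -0.18 (-0.29 without Ca/+ sarcoma 1, -0.06 without Ca/Ca sarcoma 5). The median was 0.08 with reference gene centring, beside 0.26 over all genes. Tfdp1, which lies in a stretch of chromosome 8 described at the end, had the largest difference. This gene encodes DP1, the partner with which E2F factors bind DNA. Its levels were 8.36, 8.49, 8.43 and 8.31 in Ca/Ca and 11.30 and 10.48 in Ca/+. The Ca/Ca values spanned 0.18 while the lower Ca/+ value was 1.99 above the highest of them, a difference of -2.49 (SE 0.24, 5.63-fold) with an adjusted p of 0.196. E2f1, an activating E2F factor, had 6.73, 6.70, 6.53 and 6.60 against 7.11 and 7.46, a difference of -0.65 (SE 0.15, adjusted p 0.579).

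The remaining separated members of that axis, named after their values were seen, were Rbl1 (p107, -0.87), Ccnd1 (cyclin D1, -0.62), Cdkn2c (-0.34) and Cdk4 (-0.31). Cdkn2a, the locus of the inhibitors p16 and p19, read 11.37, 11.35, 11.01 and 11.46 in Ca/Ca and 12 and 8.78 in Ca/+. The Ca/+ sarcomas thus stood at opposite ends with all Ca/Ca sarcomas between them, and the difference of 0.90 (SE 0.80) had a 95% interval of -1.04 to 2.85. Rb1 differed by -0.15, with an interval of -0.79 to 0.50.

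The 16 genes that the naming rule gave across the whole genome, the 8 of smallest p among separated genes in each direction, had adjusted p values from 0.196 to 0.579. Of the 8 lower in Ca/Ca, Ifi44l, an interferon-induced gene, had 2.89, 2.80, 2.88 and 2.88 in Ca/Ca and 5.81 and 7.09 in Ca/+. All 4 Ca/Ca values sat at the dim end, inside the range of the Y chromosome probe sets, so the difference of -3.59 (SE 0.33) and the 12-fold it stands for are lower bounds. The same holds wherever the lower group lay in that range, as for Dsp and Pcdh8 described below. This was the only gene that passed in any alternative fit, at an adjusted p of 0.0146 without Ca/+ sarcoma 1.

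Tro, which encodes trophinin, an adhesion protein, had 4.91, 5.16, 4.98 and 4.87 against 6.36 and 6.24, a difference of -1.32 (SE 0.14, adjusted p 0.262). Me1, cytosolic malic enzyme and a source of NADPH, had 7.15, 7.17, 7.40 and 7.46 against 8.90 and 8.57. Its difference was -1.44 (SE 0.17, adjusted p 0.344), with 1.11 units between the groups. Pcid2, which lies near Tfdp1 on chromosome 8, takes part in mRNA export. It had 6.67, 6.30, 6.23 and 6.44 against 9.46 and 8.35, a difference of -2.50 (SE 0.32, 5.64-fold, adjusted p 0.374).

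Nek2, a centrosome kinase, had 4.19, 4.35, 4.34 and 4.16 against 5.48 and 5.22, a difference of -1.09 (SE 0.14). Dlgap5, a spindle protein, had 5.88, 5.8, 5.8 and 5.51 against 6.83 and 6.95, a difference of -1.14 (SE 0.15). Both had an adjusted p of 0.374, and both are mitotic genes that were not on the cell cycle list. Oxct1, the enzyme that lets tissues use ketone bodies, had 8.86, 9.06, 8.81 and 8.78 against 9.78 and 9.80, a difference of -0.91 (SE 0.14, adjusted p 0.535).

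**Figure D2:**
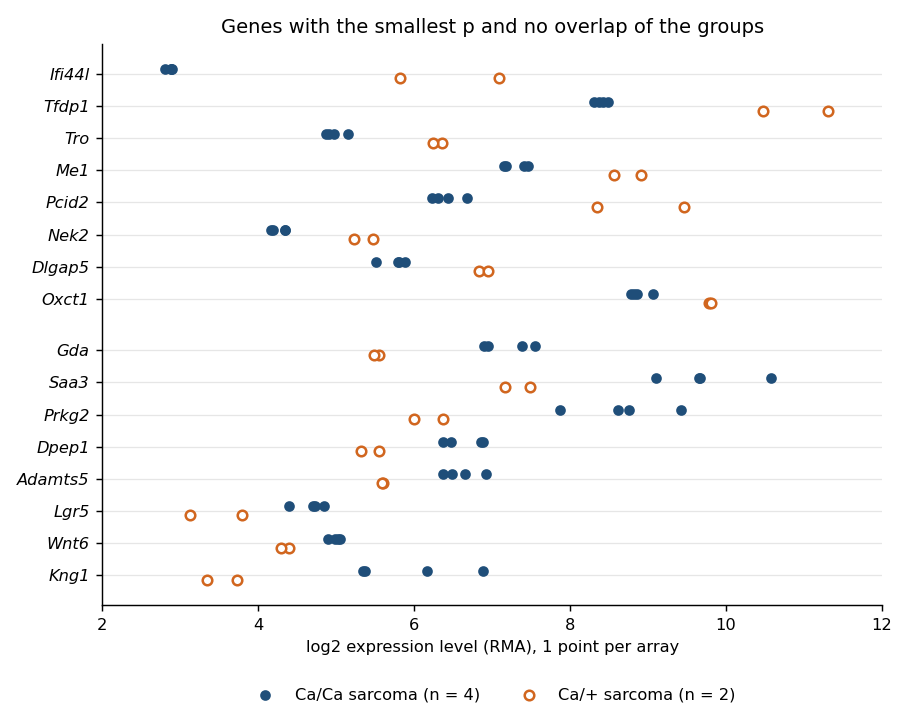
Log2 expression level of 8 genes per direction, those of lowest p among genes whose groups do not overlap, with 1 point per array, filled blue for the 4 Ca/Ca sarcomas and open orange for the 2 Ca/+ sarcomas. Ifi44l and Tfdp1 at the top are tight in Ca/Ca and far higher in Ca/+, and the 8 genes from Gda down are higher in Ca/Ca. None passed the adjusted threshold.

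Among the 8 higher in Ca/Ca, Gda, the guanine deaminase of purine breakdown, had 6.95, 7.55, 6.90 and 7.39 against 5.55 and 5.48. The difference was 1.68 (SE 0.22, 3.20-fold, adjusted p 0.374), with the Ca/+ values nearly equal. Saa3, an acute phase protein made in inflamed tissue, had 10.58, 9.09, 9.66 and 9.65 against 7.17 and 7.49, a difference of 2.42 (SE 0.39, 5.34-fold). Prkg2, a kinase activated by cyclic GMP, had 7.87, 8.62, 8.76 and 9.43 against 6.00 and 6.37, a difference of 2.49 (SE 0.41, 5.60-fold). Both had an adjusted p of 0.535, with gaps of 1.61 and 1.5 between the groups.

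Dpep1, a membrane dipeptidase, had 6.47, 6.37, 6.86 and 6.88 against 5.32 and 5.55, a difference of 1.21 (SE 0.20, adjusted p 0.535). Adamts5, an aggrecanase that cuts cartilage proteoglycan, had 6.92, 6.65, 6.38 and 6.49 against 5.61 and 5.59, a difference of 1.01 (SE 0.18). Kng1, the precursor of bradykinin, had 5.34, 5.37, 6.16 and 6.88 against 3.34 and 3.72. Its difference was 2.41 (SE 0.47), with both Ca/+ values near the dim end. Lgr5, the R-spondin receptor that marks stem cells in several epithelia, differed by 1.21 (SE 0.23) and the ligand gene Wnt6 by 0.64 (SE 0.12). The Ca/+ values of Lgr5, 3.12 and 3.79, were near the dim end. Adamts5, Kng1, Lgr5 and Wnt6 each had an adjusted p of 0.579. The sign of all 16 genes was kept in every alternative that measured them with 1 value per gene. Groups that do not overlap cannot change sign when a sarcoma is left out. Several other alternatives alter the p-value and not the difference. Those alternatives were therefore no check of the sign.

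Braf itself, read first as the targeted gene, had 4.87, 4.64, 4.73 and 5.07 in Ca/Ca and 4.81 and 4.45 in Ca/+. The groups overlapped and the difference was 0.20 (SE 0.18, adjusted p 0.782). The probe set reads the RNA of both alleles and does not measure recombination, so it does not check the labels. Of the 19 measured RAF, RAS, MEK and ERK genes, 3 were wholly below (15.8% beside 11.3%) and 0 wholly above. The median was -0.13 (-0.27 without Ca/+ sarcoma 2, -0.06 without Ca/Ca sarcoma 3). With reference gene centring it was 0.13, beside 0.26 over all genes. The 3 were Ptpn11 (SHP2, a phosphatase that relays receptor signals, -0.43), Nras (-0.31) and Pebp1 (a RAF inhibitor, -0.25). Map2k1, which encodes MEK, differed by -0.20 with an interval of -0.81 to 0.40, and Araf by -0.09 with an interval of -0.42 to 0.25.

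ERK feedback genes were split. Of 14 measured, 2 lay wholly above and 2 wholly below (14.3% each). The median was -0.01 (-0.07 without Ca/+ sarcoma 2, 0.11 without Ca/+ sarcoma 1) and was above 0 under 4 of 5 other scalings. Reference gene centring was 1 of these 4, at 0.25 beside 0.26 over all genes. Dusp6, the cytosolic phosphatase specific for ERK, had 10.69, 10.77, 10.32 and 11.15 in Ca/Ca and 10.25 and 10.07 in Ca/+. Its groups touched without overlapping, 0.07 apart, and the difference was 0.57 (SE 0.24, 1.48-fold, adjusted p 0.633) with a 95% interval of -0.01 to 1.15. Dusp2, a nuclear ERK phosphatase, had 7.03, 7.25, 7.14 and 8.0 against 6.09 and 6.73, a difference of 0.94 (SE 0.33, adjusted p 0.624).

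On the lower side, Lrig1, which lowers the level of receptors of the EGF family, had 8.65, 8.60, 8.12 and 8.34 against 9.11 and 9.12. Its difference was -0.69 (SE 0.19, adjusted p 0.583). Dusp10, a phosphatase of JNK and p38, had 6.17, 6.05, 5.87 and 5.85 against 6.89 and 6.22, a difference of -0.57 (SE 0.22). Spry1 had the widest range, at 7.43, 6.91, 7.16 and 8.87 against 6.32 and 7.25, and its difference of 0.81 had an interval of -0.60 to 2.23. The intervals of Spry4 (-0.39 to 0.61) and Spred1 (-0.35 to 0.46) leave out a 2-fold difference in either direction.

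**Figure D3:**
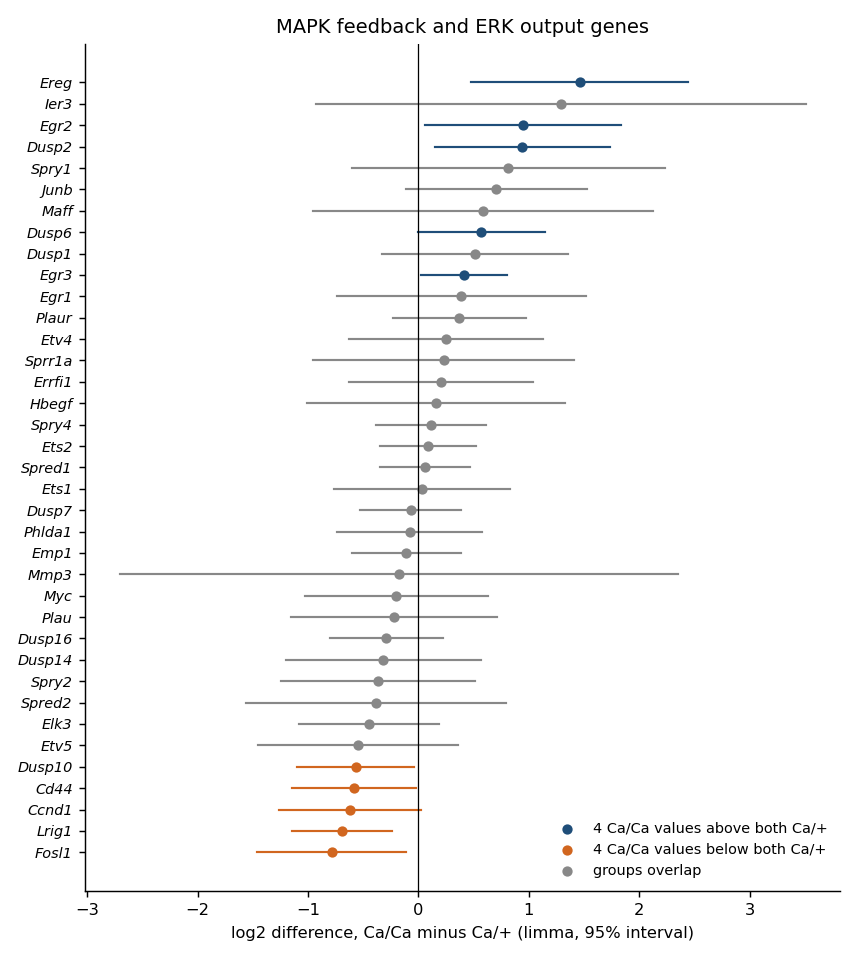
Log2 difference, Ca/Ca minus Ca/+, with its 95% interval from limma for the 37 genes of the MAPK feedback and ERK output lists, ordered by size. Blue marks genes whose 4 Ca/Ca values lie above both Ca/+ values, orange those whose values lie below and grey those that overlap. Ereg, Egr2 and Dusp2 lie on the higher side, Fosl1 and Lrig1 on the lower side, and most intervals cross 0.

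Transcription factors and effectors downstream of ERK had 4 of 24 members wholly above (16.7%) and 3 wholly below (12.5%). The median was 0.12 (-0.08 without Ca/+ sarcoma 2, 0.29 without Ca/+ sarcoma 1) and -0.11 over every named probe set, so it had no stable direction. Ereg, the growth factor epiregulin, had 9.38, 9.60, 10.36 and 10.36 against 8.96 and 7.98, the largest difference of the list among separated members at 1.46 (SE 0.40, 2.75-fold, adjusted p 0.591). Egr2, an immediate early zinc finger factor, had 6.84, 6.06, 5.87 and 5.51 against 4.92 and 5.32, a difference of 0.95 (SE 0.37). Its relative Egr3 differed by 0.41 (SE 0.16) and Egr1, whose groups overlapped, by 0.39 with an interval of -0.74 to 1.52.

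The 3 lower members of that list were Fosl1, Ccnd1 and Cd44. Fosl1, which encodes the AP-1 subunit Fra-1, had 8.72, 8.66, 8.14 and 8.66 against 9.73 and 8.93, a difference of -0.79 (SE 0.28, adjusted p 0.624). Ccnd1 had 11.46, 11.48, 10.76 and 11.00 against 12.02 and 11.58, a difference of -0.62 (SE 0.27). Cd44, the hyaluronan receptor, had 10.30, 10.19, 9.96 and 10.35 against 11.14 and 10.42, a difference of -0.58 (SE 0.23). In each of the 3, Ca/+ sarcoma 1 was the highest of the 6 sarcomas. Myc differed by -0.20 (interval -1.03 to 0.63), Etv4 by 0.25 (-0.63 to 1.13) and Etv5 by -0.55 (-1.46 to 0.36), so members of the same list pointed to both sides. Of 20 immediate early and stress genes only Btg2, an antiproliferative gene, was separated (0.72, SE 0.23), and the median was 0.28 (0.02 without Ca/+ sarcoma 1, 0.45 without Ca/+ sarcoma 2).

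Among 19 p53 targets, 3 lay wholly above (15.8%) and 1 wholly below, with a median of 0.09 (0.03 without Ca/Ca sarcoma 3, 0.13 without Ca/+ sarcoma 2). Pmaip1, the death gene that encodes Noxa, had 5.42, 5.49, 6.76 and 6.44 against 4.07 and 5.00, a difference of 1.49 (SE 0.48, 2.81-fold, adjusted p 0.618). Cdkn1a, the inhibitor p21 that halts the cycle, had 9.41, 9.68, 9.57 and 9.86 against 9.01 and 8.90. The Cdkn1a difference was 0.67 (SE 0.16, 1.59-fold, adjusted p 0.579), and this gene is also on the senescence list. Trp53inp1, a stress protein, differed by 1.01 (SE 0.26) and Zmat3, an RNA-binding p53 target, by -0.56 (SE 0.21). Trp53 was not analysed here. Of 21 genes linked to senescence 2 lay wholly above (9.52% beside 9.68%), Cdkn1a and Mmp13. Wholly below was 1 (4.76% beside 11.3%), Glb1, the lysosomal galactosidase (-0.94, SE 0.21).

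Matrix-degrading enzymes and their inhibitors were the list with the largest share of members wholly above among the lists with at least 10 measured genes, 8 of 29 (27.6% beside 9.68%), with 3 wholly below and a median of 0.37. Mmp13, collagenase 3, had 9.87, 7.48, 8.62 and 6.51 in Ca/Ca and 4.44 and 5.13 in Ca/+. Every Ca/Ca sarcoma was at least 1.38 above the Ca/+ pair, but they ranged over 3.36 units, and the difference of 3.33 (SE 0.89, 10.1-fold) had an adjusted p of 0.579. Mmp9, gelatinase B, had 7.69, 9.60, 8.46 and 11.65 against 6.07 and 7.50, a difference of 2.56 (SE 1.10, adjusted p 0.634). Mmp9 was highest and Mmp13 lowest of the Ca/Ca group in Ca/Ca sarcoma 5.

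The other 6 members above, named after their values were seen except for Adamts5, were Mmp19 (1.12), Plat (tissue plasminogen activator, 1.02), Adamts5, Mmp8 (neutrophil collagenase, 0.86), the inhibitor Timp1 (0.80) and Mmp2 (gelatinase A, 0.65). Plat and Mmp2 lie on chromosome 8, which is described at the end. Timp1 had 11.65, 12.08, 11.97 and 12.03 against 10.87 and 11.41, so an inhibitor and the enzymes it blocks stood on the same side. The members below were Adam19 (-0.87), Serpinf1 (-0.52) and Adamts1 (-0.49). The list median stayed above 0 in every alternative, from 0.11 to 0.63.

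Collagen chains had a median of -0.42 (-0.71 without Ca/Ca sarcoma 1, -0.24 without Ca/Ca sarcoma 3). Of 19 chains 4 lay wholly below (21.1% beside 11.3%) and 1 wholly above. Col6a3, a chain of microfibrillar collagen VI, had 9.08, 9.95, 9.16 and 9.32 against 11.22 and 10.33, a difference of -1.40 (SE 0.34, 2.64-fold, adjusted p 0.579). Col4a2 and Col4a1, basement membrane chains that lie next to each other on chromosome 8, differed by -1.10 (SE 0.44) and -0.93 (SE 0.29), and Col16a1 by -0.74 (SE 0.42). Col4a1 and Col4a2 belong to the stretch up to Tfdp1 that is described at the end, and both were highest in Ca/+ sarcoma 1. The median of the list was 0.12 when the tumour number was a block, so its direction was not stable. Of 26 matrix glycoproteins and crosslinkers only Tnc was separated. Tenascin C, a protein of remodelled stroma, had 10.04, 9.40, 9.98 and 8.05 against 11.44 and 11.24, a difference of -1.97 (SE 0.57, 3.93-fold, adjusted p 0.615).

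Smooth muscle and myofibroblast genes held the largest differences of the fibroblast list. In that list 5 of 26 lay wholly below (19.2% beside 11.3%) and 2 wholly above (7.69% beside 9.68%). The median was -0.07 (-0.18 without Ca/Ca sarcoma 1, -0.00079 without Ca/Ca sarcoma 5). With reference gene centring it was 0.19, beside 0.26 over all genes. Tagln, transgelin, had 9.79, 8.42, 8.08 and 6.06 against 11.31 and 10.29, a difference of -2.71 (SE 0.96, 6.55-fold, adjusted p 0.624). Cnn1, calponin, had 4.41, 4.28, 3.85 and 3.61 against 5.07 and 6.65, a difference of -1.83 (SE 0.46). Both were lowest in Ca/Ca sarcoma 5. Acta2, smooth muscle actin, was named after its values were seen and had 10.44, 9.30, 8.97 and 7.11 against 11.34 and 9.98, so its groups overlapped. From the list of contractile genes, the tropomyosins Tpm2 (-1.10, SE 0.24) and Tpm1 (-0.82, SE 0.21) lay wholly below. Fap, a protease of activated fibroblasts, was higher (0.85, SE 0.25) and Vim, vimentin, lower (-0.44, SE 0.20).

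Muscle fibre genes varied between the tumours of each genotype. Of the contractile list 3 of 33 lay wholly above (9.09% beside 9.68%) and 2 wholly below (6.06% beside 11.3%). The list had a median of 0.49, which was -0.31 without Ca/+ sarcoma 1 and 1.09 without Ca/+ sarcoma 2. Its mean was 6.85, 7.77, 7.49 and 7.16 in Ca/Ca and 6.18 and 7.65 in Ca/+, so the Ca/+ sarcomas lay apart with most of Ca/Ca between them. Carry-over of muscle next to the tumour was not measured. Myf6, the myogenic factor Mrf4, had 6.02, 6.68, 6.66 and 6.57 against 4.43 and 5.82, a difference of 1.35 (SE 0.40, adjusted p 0.618). Myod1, the regulator that starts the muscle programme, had 4.14 to 4.66 in Ca/Ca and 4.17 and 4.40 in Ca/+, with an interval of -0.37 to 0.54.

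Growth factor, patterning and imprinted genes gave scattered differences. Receptor tyrosine kinases and growth factors had 5 of 30 wholly above (16.7% beside 9.68%) and 3 wholly below (10% beside 11.3%). Ereg was at the top, with Igfbp4 at 0.71 (SE 0.25), Pdgfa at -0.78 (SE 0.28) and Met, the HGF receptor, at -0.61 (SE 0.13). Imprinted and oncofetal genes had 5 of 17 wholly below (29.4%) and 1 wholly above, with a median of -0.39. The members below were Ndn (-1.68), Plagl1 (-1.45), Grb10 (-1.35), Igf2bp3 (-0.94) and Igf2r (-0.85), and the single member above, Peg10, read 2.15 to 2.35 in all 6 sarcomas. Ndn, which encodes necdin, a growth suppressor, had 8.55, 8.34, 8.31 and 5.40 against 9.67 and 9.0, with Ca/Ca sarcoma 5 far below the rest. Without that sarcoma the median of the list was -0.17, and without Ca/Ca sarcoma 1 it was -0.64.

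Among 28 Hox genes 4 lay wholly below and 4 wholly above (14.3% each, beside 11.3% and 9.68% of all genes). The 4 below were neighbours of the HoxC cluster on chromosome 15, Hoxc8, Hoxc6, Hoxc4 and Hoxc5, named together after their values were seen. Hoxc8, a factor of trunk and limb patterning, had 3.32, 4.12, 3.95 and 3.53 against 5.90 and 5.26, a difference of -1.85 (SE 0.29, 3.61-fold, adjusted p 0.535). Hoxc6 differed by -0.88 (SE 0.30), Hoxc4 by -0.59 (SE 0.19) and Hoxc5 by -0.28 (SE 0.12). Hoxa11, a limb gene of the HoxA cluster, had 6.16, 5.12, 5.15 and 7.21 against 3.98 and 4.68, a difference of 1.58 (SE 0.63). Of the TGF-beta, activin and BMP genes, 1 of 22 lay wholly below, Gdf10, with 4.31, 4.43, 4.67 and 4.0 against 6.66 and 5.53 (difference -1.74, SE 0.34, adjusted p 0.579).

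Of 32 macrophage and monocyte genes 2 lay wholly above (6.25% beside 9.68%) and 0 wholly below. The median was -0.05 (-0.42 without Ca/+ sarcoma 1, 0.37 without Ca/+ sarcoma 2), and 0.29 without Ca/Ca sarcoma 5, so it had no stable direction. With reference gene centring it was 0.21, beside 0.26 over all genes. Arg1, arginase of alternatively activated macrophages, had 10.56, 9.30, 7.67 and 10.57 against 6.75 and 6.65, a difference of 2.82 (SE 0.83, 7.08-fold, adjusted p 0.618). Clec4d, a myeloid lectin receptor, differed by 1.40 (SE 0.47). The 9 macrophage markers had mean levels of 9.12 to 10.52 in Ca/Ca and 9.80 to 10.67 in Ca/+, and 0 of the 9 were separated, with Csf1r differing by -0.20 (interval -1.07 to 0.66).

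Chemokines and cytokines had 5 of 34 wholly above (14.7%) and 1 wholly below, with a median of 0.43 (0.05 without Ca/+ sarcoma 1, 0.72 without Ca/+ sarcoma 2). Ccl6, a myeloid chemokine, had 10.75, 11.01, 11.73 and 11.03 against 8.31 and 9.92, a difference of 2.01 (SE 0.48, 4.04-fold, adjusted p 0.579). Cxcl14 had 9.46, 10.28, 10.59 and 9.26 against 6.60 and 8.66, a difference of 2.27 (SE 0.64). Cxcl13, which attracts B cells, had 10.39, 11.00, 11.45 and 10.35 against 7.06 and 10, a difference of 2.27 (SE 0.79). In all 3 genes Ca/+ sarcoma 1 was far below Ca/+ sarcoma 2, and the 6 endothelial markers were also lower there (5.41 against 6.50).

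The other members above were Il33 (0.77) and Il11 (0.73), a cytokine of the IL-6 family. Cxcl12, the ligand of Cxcr4, had 8.33, 9.58, 9.15 and 6.65 against 9.85 and 10.09, a difference of -1.54 (SE 0.79). Il6, whose difference of 1.55 was among the largest of the list, overlapped at 5.99, 4.02, 7.56 and 4.22 against 3.42 and 4.37. S100a8, a calgranulin of neutrophils, had 9.19, 8.84, 11.99 and 9.58 against 5.91 and 7.61, a difference of 3.14 (SE 0.96, 8.80-fold, adjusted p 0.618). Its partner S100a9 had 8.05, 8.04, 11.27 and 6.13 against 4.84 and 6.71, so its groups overlapped through Ca/Ca sarcoma 5. The neutrophil and mast cell list had 4 of 16 wholly above (25% beside 9.68%), of which Elane, Cxcr2 and Ltf were all under a log2 level of 5.5.

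The neutrophil and mast cell list had 1 of 16 wholly below, Kit (6.25% beside 11.3%). Among the mast cell proteases, Mcpt2, which is not on the list, had the largest difference of any gene described, with 3.93, 6.36, 5.41 and 2.99 against 11.37 and 8.53, and was named after its values were seen. The difference was -5.28 (SE 1.14, 38.8-fold), with an adjusted p of 0.579 and a wide spread within both groups. Cma1, Mcpt4, Tpsb2 and Cpa3, further mast cell proteases, differed by -2.26, -2.09, -2.23 and -2.20, and each overlapped because Ca/Ca sarcoma 3 exceeded Ca/+ sarcoma 2. Kit, the receptor that mast cells need, had 4.47, 4.61, 4.36 and 3.53 against 6.10 and 4.72, a difference of -1.17 (SE 0.46).

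No lymphocyte, endothelial, MHC class II or interferon list had a separated member (0 of 21, 0 of 19, 0 of 8 and 0 of 31, beside 21% of all genes). Ifi44l, described above, is not on the interferon list and did not follow its mean. That mean was 9.81, 8.16, 8.02 and 6.00 in Ca/Ca and 7.98 and 9.45 in Ca/+. MHC class I and interferon-stimulated genes had a median of -0.55, which was 0.09 without Ca/Ca sarcoma 5, -1.37 without Ca/+ sarcoma 1 and 0.10 without Ca/+ sarcoma 2. Ifit1, an interferon-induced gene, had 10.57, 6.61, 7.47 and 3.72 against 8.75 and 9.94, a spread of 6.85 units inside the Ca/Ca group. H2-Eb1, a class II chain, had 11.59, 12.52, 12.05 and 7.87 against 8.80 and 11.61, so its low values were in the 2 sarcomas with the lowest T cell and NK cell markers.

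Genes of epithelial and nerve tissue were measured at low or mixed levels. Of 19 keratin and junction genes 5 lay wholly above (26.3%) and 1 wholly below, with a median of 0.15 (0.10 without Ca/Ca sarcoma 3, 0.29 without Ca/+ sarcoma 1). Dsp, desmoplakin, had 3.92, 4.25, 4.80 and 6.72 against 3.64 and 2.98, a difference of at least 1.61 (SE 0.78). Krt18, a simple keratin, had 8.94, 8.06, 10.26 and 11.55 against 8.38 and 5.24, a difference of 2.89 (SE 1.20) with overlap. The 5 epithelial markers had mean levels of 4.64 to 5.70 in Ca/Ca and 4.19 to 4.81 in Ca/+. Of these, 2 were separated, Epcam (0.79) and Cdh1 (1.08, with Ca/+ values of 2.81 and 3.90 near the dim end). Whether stray epithelium had a part in this was not tested.

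Nerve and Schwann cell genes had 4 of 15 wholly below and 4 wholly above (26.7% each, beside 11.3% and 9.68% of all genes). Gap43, a growth cone protein, had 6.30, 4.87, 7.86 and 7.75 against 9.05 and 8.88, a difference of -2.27 (SE 0.85, 4.83-fold, adjusted p 0.629). The neurofilament genes Nefl and Nefm differed by -1.57 (SE 0.61) and -1.25 (SE 0.35). Of the members above, Sox10, the Schwann cell factor, had levels of 5.38 to 5.69 against 5.18 and 5.11, a difference of 0.38 (SE 0.14). The mean of the 2 measured Schwann cell markers, Mbp and Sox10, was 5.57 to 5.94 in Ca/Ca and 5.54 to 5.62 in Ca/+, so the groups overlapped.

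Ribosome biogenesis had 7 of 22 wholly below (31.8%) and 1 wholly above. The median was -0.19 (0.07 with reference gene centring, beside 0.26 over all genes). Among its members was Nop56 (-0.41, SE 0.16), a protein of box C/D particles. Oxidative phosphorylation and citrate cycle genes had 4 of 32 wholly below (12.5% beside 11.3%) and 0 above. Their median was -0.11 (-0.16 without Ca/+ sarcoma 1, -0.05 without Ca/Ca sarcoma 1). That median was 0.15 with reference gene centring, beside 0.26 over all genes. In this list Idh3a, a subunit of isocitrate dehydrogenase, had 8.99, 8.98, 8.99 and 8.90 against 9.43 and 9.59 (difference -0.55, SE 0.12). ATF4 and amino acid genes had 4 of 24 wholly below (16.7% beside 11.3%) and 1 above (4.17% beside 9.68%). The member above was Ddit4, the mTORC1 inhibitor, at 0.87 (SE 0.19). NRF2 genes had 2 of 16 wholly above (12.5% beside 9.68%), Nqo1 (1.29, SE 0.55) and Gpx3 (0.99, SE 0.25). Nqo1 lies on chromosome 8, which is described at the end. In 6 microRNA processing genes 2 lay wholly below (33.3% beside 11.3%), Dicer1 (-0.44) and Xpo5 (-0.38). The 11 reference genes had a median of -0.05 (-0.07 without Ca/+ sarcoma 1, -0.02 without Ca/Ca sarcoma 2). Of these, 2 lay wholly below (18.2% beside 11.3%), Polr2a and Actb.

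**Figure D4:**
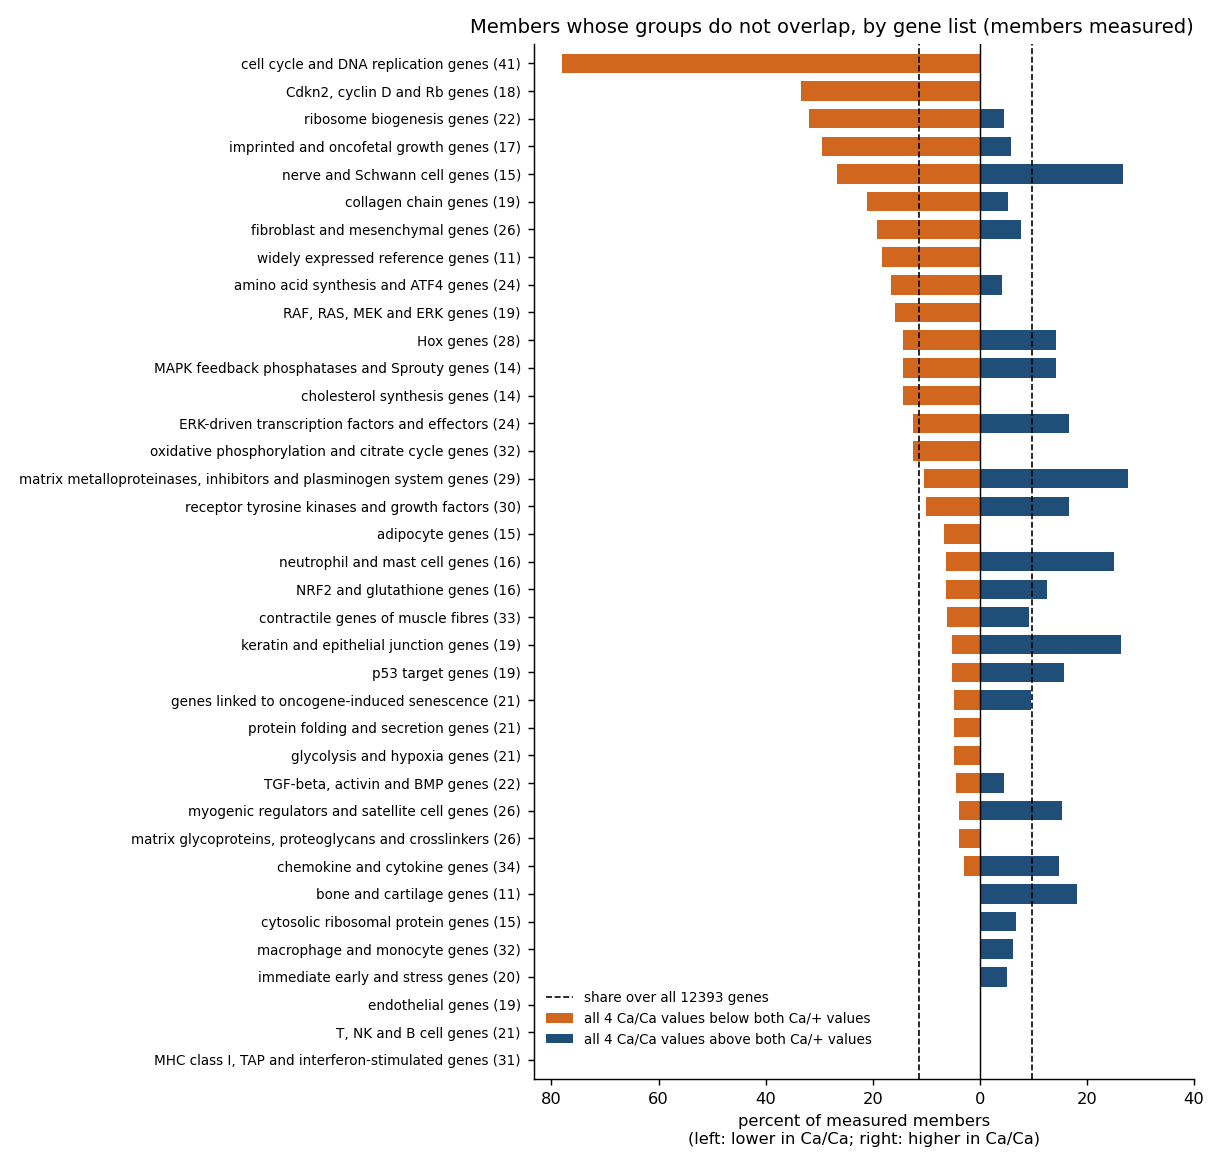
Percent of measured members of each of the 37 lists with at least 10 measured genes (number in brackets) whose 4 Ca/Ca values lie all below (orange, to the left) or all above (blue, to the right) both Ca/+ values. Dashed lines are the shares over all 12393 genes, 11.3% and 9.68%. The cell cycle list reaches 78.0% on the left with 0 on the right.

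Some separated genes with large differences lay outside the lists and were named after their values were seen. Pcdh8, a protocadherin, had 4.40, 5.90, 6.18 and 7.88 against 2.56 and 2.65, a difference of at least 3.48 (SE 0.86, adjusted p 0.579), since both Ca/+ values were at the dim end. Sox2, a factor of stem and neural cells, had 5.03, 6.82, 7.18 and 9.26 against 4.59 and 3.16, a difference of 3.19 (SE 1.10). Acp5, the tartrate-resistant phosphatase of osteoclasts and macrophages, had 8.05, 9.59, 9.46 and 12.12 against 6.19 and 7.33, a difference of 3.05 (SE 1.06). In all 3 genes Ca/Ca sarcoma 5 was highest and Ca/Ca sarcoma 1 lowest of the Ca/Ca group. Scara5, a ferritin receptor, differed by 2.96 (SE 0.75), Sln, the calcium pump regulator sarcolipin, by 2.89 (SE 0.58), and Chil3, a chitinase-like protein of macrophages, by 2.75 (SE 0.81).

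Position along chromosome 8 went with the direction of the difference, and both Tfdp1 and Pcid2 lie there. In the gene order of GRCm38.p6, 52 measured genes run from the start of the chromosome to Tfdp1, and 593 follow. Of the first 52, 23 lay wholly below (44.2%) and 6 wholly above. Among the 29 with a mean level of at least 6, 20 lay wholly below and 0 wholly above. Col4a1, Col4a2, Pcid2 and Tfdp1, given above as lower in Ca/Ca, are among those 20. Of the 593 that follow, 10 lay wholly below (1.69%) and 100 wholly above (16.9%). Dpep1, Nqo1, Cdh1, Plat and Mmp2, given above as higher in Ca/Ca, are among those 100, and each was lowest in Ca/+ sarcoma 1. The pattern was seen only after the values were known, and the genes named here were chosen from it.

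The neighbours of Tfdp1 showed the step gene by gene. Cul4a, a ubiquitin ligase scaffold, had 6.56, 6.58, 6.50 and 6.79 in Ca/Ca and 9.32 and 7.50 in Ca/+. Lamp1, a lysosomal membrane protein, had 11.69, 11.65, 11.63 and 11.67 against 13.26 and 12.20. Tmco3, a membrane protein, had 5.96, 5.94, 6.02 and 6.25 against 8.99 and 7.34. In all 3 genes Ca/+ sarcoma 1 was highest, Ca/+ sarcoma 2 next and the Ca/Ca sarcomas close together. Ing1, a chromatin reader, had 8.60, 8.71, 8.95 and 8.65 against 11.07 and 8.95, so there Ca/+ sarcoma 2 was level with Ca/Ca. Gas6, the next gene beyond Tfdp1 with a mean level above 6, had 9.0, 9.31, 8.84 and 7.70 against 8.98 and 8.96, with no step.

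Both Ca/+ sarcomas were set against the Ca/Ca mean gene by gene. Over the 29 genes up to Tfdp1 with a mean level of at least 6 the median was 1.60 in Ca/+ sarcoma 1 and 0.38 in Ca/+ sarcoma 2. Over those after Tfdp1 the medians were -0.44 and -0.01. On every other chromosome the median of Ca/+ sarcoma 1 lay between -0.08 and 0.14 over genes of that level. Ca/+ sarcoma 1 was below all 4 Ca/Ca sarcomas in 228 of the 337 such genes after Tfdp1 and above all 4 in 4. Ca/+ sarcoma 2 was below all 4 in 65 and above all 4 in 81, so the lower levels there were those of Ca/+ sarcoma 1. DNA was not measured, so the number of copies of this chromosome was not tested. With the 645 genes of chromosome 8 left out, 9.31% of 11748 genes were wholly above and 11.6% wholly below, and 0 passed. Of the cell cycle list, Mcm5 lies on this chromosome, and its groups overlapped.

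**Figure D5:**
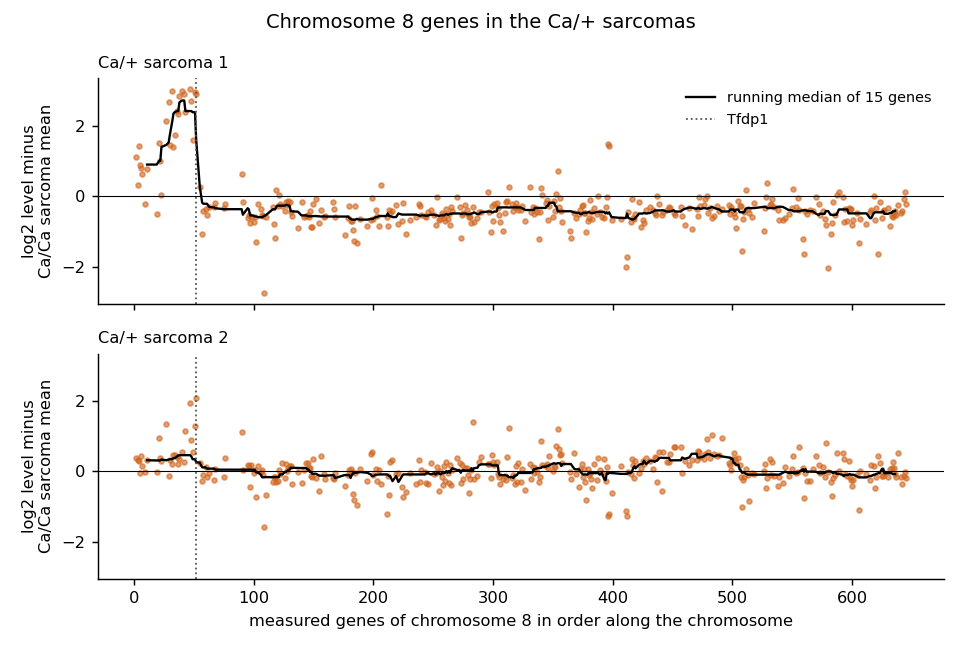
Log2 level in each Ca/+ sarcoma minus the mean of the 4 Ca/Ca sarcomas for genes of chromosome 8 with a mean level of at least 6, plotted by place in the order of measured genes along the chromosome. The black line is a running median of 15 genes and the dotted line marks Tfdp1. Ca/+ sarcoma 1 lies above 0 up to Tfdp1 and below 0 after it, with a smaller step in Ca/+ sarcoma 2.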

How the data were processed

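Total RNA of the sarcomas was purified with TRIzol and RNeasy, turned into biotinylated cRNA and hybridised to Affymetrix arrays. The authors deposited 1 log2 value per probe set and array, made with RMA per the submitters' processing notes. Neither the version of RMA nor a batch is given in the sources used here. RMA gives arrays a shared distribution, so a change in total RNA is not measured, and the number of arrays limits the precision.

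Of 22690 probe sets, 64 controls, 691 with several symbols and 1555 without a name were left out. The other 20380 gave 12393 genes, each read by the probe set with the highest mean over the 8 arrays. Symbols came from the platform annotation, which can be old, and 20351 probe sets matched the RefSeq table of GRCm38.p6 by Entrez number.

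The 6 sarcomas were fitted in R 4.3.3 using limma 3.58.1 (functions lmFit and eBayes, no covariate, 4 residual and 2.27 prior degrees of freedom), and p-values were adjusted by Benjamini-Hochberg over the 12393 genes, with 0.05 as the threshold. The procedure was tested on simulated data. Figures used Python 3.11.15 and matplotlib 3.10.9. The 41 gene lists hold 939 entries, of which 844 were measured (798 different genes), and are described by counts and medians with no set test.

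The comparison, the lists and the printed promoters were chosen with earlier results of these data known. The naming rule took Braf, the 8 separated genes of smallest p in each direction, the 2 members of largest difference in each list, every MAPK list member, and Xist with the Y chromosome genes. Other genes were named after their values were seen, whether or not a sentence repeats it. A total of 22 alternatives were run.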

Additional observations from a re-analysis of the deposited data

Results flagged for a closer look

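Within the 4 Ca/Ca sarcomas, 58 quantities were examined for a sample far from the other 3 (Dixon's gap over range at its 95% limit, which chance exceeds in about 1 of 20 groups), and 4 met it. The mean of the macrophage and monocyte genes was 8.58 in Ca/Ca sarcoma 5 and 9.90 to 9.96 in the others, a gap of 0.960 of the range. The mean of the T, NK and B cell genes was 4.38 in Ca/Ca sarcoma 5 and 6.58 to 6.81 in the others, a gap of 0.904. The mean of the oxidative phosphorylation and citrate cycle genes was 9.53 in Ca/Ca sarcoma 1 and 9.76 to 9.79 in the others, a gap of 0.867. The mean of Xist and the Y chromosome genes was 4.25 in Ca/Ca sarcoma 5 and 4.57 to 4.59 in the others, a gap of 0.933.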

How the results depend on the processing

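No gene passed in 21 of the 22 alternatives, and leaving out each sarcoma in turn gave 0 to 1 genes. The 1 was Ifi44l, without Ca/+ sarcoma 1. The count at an unadjusted p of 0.05 was 971 and ranged from 473 to 1071 when a sarcoma was left out. It was 453 without the dimmest 50% of genes and 1578 over all 20380 named probe sets. The count of separated genes was 2598 and ranged from 3186 to 5443 when a sarcoma was left out. Tumour numbers 1 and 2 occurred in both genotypes, but the labels do not say that they mark a shared litter or day, and with 2 numbers they could not be tested as pairs. With the number as a replicate block 0 genes passed, the lowest adjusted p was 0.65 and 857 genes were under an unadjusted 0.05.

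Of 146 genes named by the rule, 106 kept their sign in every alternative that measured them with 1 value per gene. The fit over all named probe sets was not part of this check, so the sign of a gene's other probe sets was not compared. The other 40 were Perp, Cdkn2a, Kdelr3, H2-Eb1, H2-Oa, Cd3g, Uty, Xist, Kdm5d and 31 of the 49 MAPK list members that no other part of the rule names, among them Araf, Map2k1, Egr1, Myc, Etv4, Spry4, Spred1 and the separated Pebp1. Of 41 list medians, 10 kept their sign, among them those of the cell cycle (-0.99 to -0.58) and of the matrix proteases. Centring on reference genes moved the median of all genes by 0.26. It was the only setting that turned the RAF, RAS, MEK and ERK, the Cdkn2, cyclin D and Rb, the ribosome biogenesis and the oxidative phosphorylation medians. Their medians under it stayed below 0.26, so these turns are no change of direction against all genes. Leaving out chromosome 8, which was chosen after seeing the data, called 0 genes. A group of 2 arrays sets the spread of Ca/+ with 1 degree of freedom.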

Other observations

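The same 16 leading genes were read in the 2 normal muscles, 1 array of each genotype and so with no test. Of the 8 lower in the Ca/Ca sarcomas, 3 were also lower in the Ca/Ca muscle than in the Ca/+ muscle, and of the 8 higher, 4 were also higher. Tfdp1 read 8.13 (Ca/Ca muscle) and 7.72 (Ca/+ muscle), both below every sarcoma. Prkg2 had 4.87 and 3.57, also below every sarcoma. Me1 had 10.40 and 10.52, above every sarcoma. Saa3 had 6.55 and 5.24, and Ifi44l had 2.84 and 3.46. The cell cycle list had means of 6.08 and 5.37 in the muscles, below the lowest sarcoma at 6.47.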
